A study of Homo sapiens with 20 samples.

Results

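Cytochrome b is the mitochondrially encoded subunit of respiratory complex III, the enzyme that passes electrons from ubiquinol to cytochrome c. Its mRNA, CYTB, was described here as the stretch from position 14747 to 15887 of the GRCh38 mitochondrial genome, the extent RefSeq gives the gene. These positions make up 6.89% of the 16570 listed in each library, and CYTB is 1 of 37 mitochondrial genes and 1 of 13 mRNAs. Bases are counted from 1 at position 14747. The gene lies between the tRNA genes TRNE (14674 to 14742) and TRNT (15888 to 15953). Mitochondrial mRNAs carry no introns and are freed from a long precursor largely by cutting out the tRNAs between them.

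The cells were K562, a human chronic myelogenous leukaemia line, and mitochondrial RNA from 4 groups was treated with 0.5 M CMC. CMC, a carbodiimide, forms a lasting adduct with pseudouridine, an isomer of uridine, and reverse transcriptase falters at the adduct. Rescued cells were an NME6 KO given WT-NME6 cDNA (3 libraries), and they were set against the NME6 KO itself (4 libraries). RPUSD4 knockdown cells had 3 libraries, and control cells, wild type with a non-targeting sgRNA, had 4. NME6 belongs to the nucleoside diphosphate kinase family and is found in mitochondria. RPUSD4 is a mitochondrial pseudouridine synthase known to act on 16S rRNA, while RPUSD3 and TRUB2 are the synthases that have been linked to pseudouridine in mitochondrial mRNAs. The labels give neither the promoter of the rescuing cDNA nor whether a group is 1 clone or a pool. They do not say that replicates were separate cultures either, and the p-values below therefore cover the spread among these libraries, which may be technical.

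The deposited value at each position is a signed difference, CMC-treated minus untreated, taken here to be in percentage points of reads altered at that base. It is called the level below. The number of reads is unknown, a level of exactly 0 may mean that no read covered the base, and no reference base was used here, so a high base need not be a uridine. The labels list 1 untreated library for the rescued cells, 2 for the NME6 knockout, 1 for the RPUSD4 knockdown and 2 for the control. Libraries of 1 group share identical negative levels, so each group appears to have had a single untreated profile subtracted. If so, an error in that profile is common to all libraries of a group and does not enter the SDs and tests below, a limit that holds for gene means, windows and single bases alike and was not tested. The last listed position, 16571, lies past the end of the GRCh38 mitochondrial genome, so the numbering may be off by a base. Over all positions the mean level ranged from 0.0850 to 0.166 points between libraries. Replicate 1 of the NME6 knockout and replicate 1 of the control had the 2 lowest means and stood apart from their groups. The rescued samples were numbered apart from the other groups at deposit, and a batch effect and the rescue cannot be told apart in them.

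CYTB carried a low, broad profile with no base that stood out in every library. Its levels ran from -0.658 to 4.41 points. No CYTB base reached 1 point in all 14 libraries, 54 bases were above 0 in all 14, and 43 were listed at 0 in all 14. Averaged over the 14 libraries, 4 CYTB bases reached 1 point, or 0.351% of the gene, against 0.899% of all listed positions. A mean of 0.5 points or more was reached by 38 CYTB bases, or 3.33%, against 5.18% of all positions. Among the 13 mRNAs only COX2, ND3, ND4L and ND6 had a lower share of bases with a mean of 1 point.

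Averaged over the gene, the rescued libraries had CYTB levels of 0.0825, 0.0838 and 0.0670 points. The NME6 knockout libraries read 0.0961, 0.161, 0.153 and 0.146 points. RPUSD4 knockdown libraries read 0.165, 0.142 and 0.09995 points, and control libraries 0.0846, 0.152, 0.159 and 0.159 points. All 3 rescued libraries thus lay below every library of the other 3 groups, and the knockout, knockdown and control libraries overlapped one another. The group means were 0.0777 ± 0.00935 points in rescued cells (SD, n = 3), 0.139 ± 0.0291 in the NME6 knockout (n = 4), 0.136 ± 0.0328 in the RPUSD4 knockdown (n = 3) and 0.139 ± 0.0361 in control (n = 4). The rescued mean was 56.0% of the knockout mean and 56.1% of the control mean. Without replicate 1 of the knockout and of the control, the rescued cells differed from the knockout by -0.0753 points and from control by -0.0788 points, against -0.0610 and -0.0608 with them. With each library scaled to its mean over untested positions the differences were smaller, -0.0401 and -0.0368 points. The knockout differed from control by 0.000266 points and the knockdown by -0.00300 points, both far within the spread of the libraries. No p-value is given for these gene means.

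Part of this difference was shared with the other mRNAs, and CYTB lay at its far end. The mean level over the other 12 mRNAs was 0.104 ± 0.0119 points in rescued cells, 0.146 ± 0.0379 in the NME6 knockout, 0.147 ± 0.0201 in the RPUSD4 knockdown and 0.142 ± 0.0394 in control (SD). Divided by that mean, CYTB stood at 0.746, 0.759 and 0.745 in the rescued libraries. The ratio was 1.07, 0.951, 0.908 and 0.934 in the NME6 knockout, 0.974, 0.999 and 0.771 in the RPUSD4 knockdown and 1.02, 0.954, 0.971 and 0.974 in control. The 3 rescued libraries again lay below all others, and knockdown replicate 3 came nearest to them. A CYTB ratio below both the knockout and the control without overlap is not particular to this mRNA. Against the knockout, 23.1% of the 13 mRNAs had a ratio in the rescued libraries below all knockout libraries, and against control 15.4% did so. Knockout and knockdown ratios overlapped control for CYTB, while 7.69% of the mRNAs lay below and 15.4% above control in the knockdown.

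**Figure D1:**
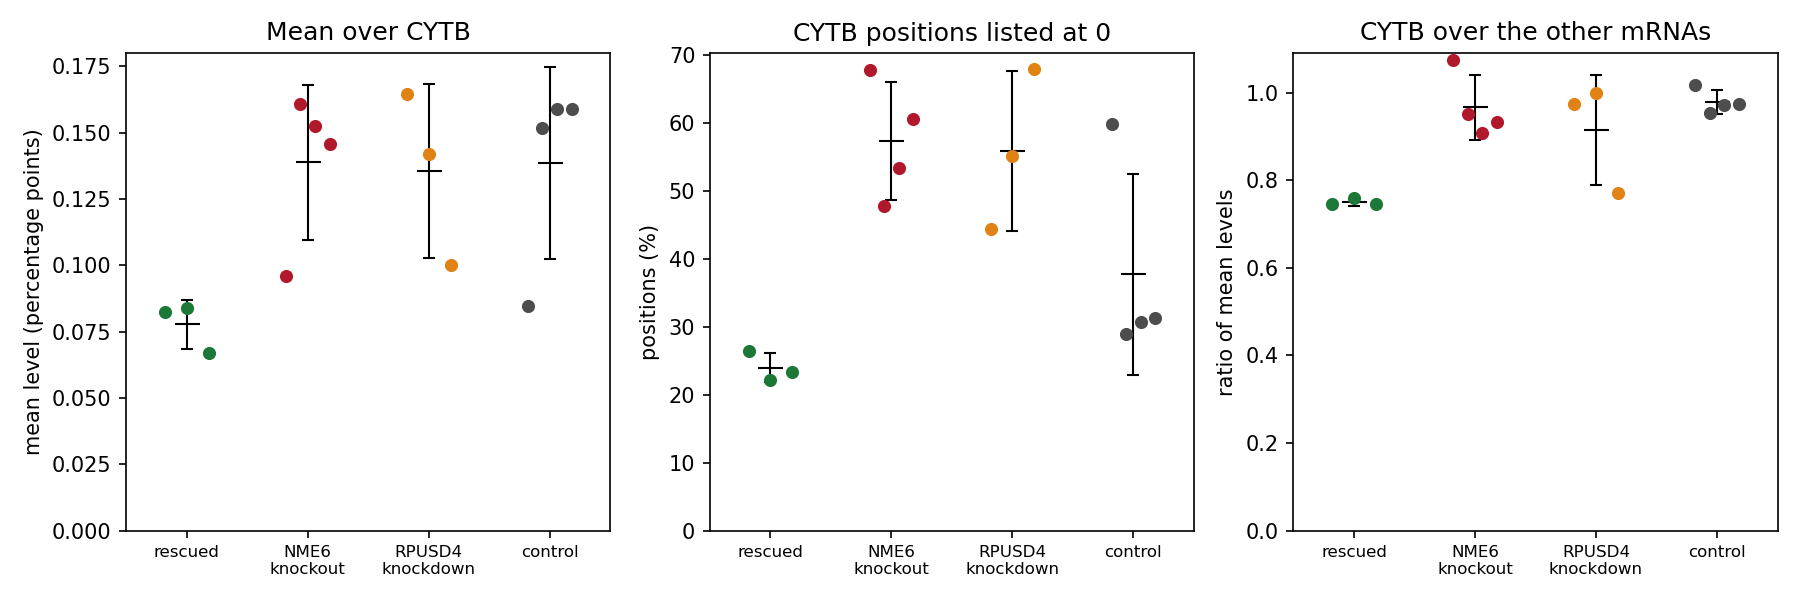
Mean level over CYTB in percentage points (left), percentage of CYTB positions listed at 0 (middle) and the CYTB mean divided by the mean of the other 12 mRNAs (right). Each point is 1 library, and the bars give the group mean and SD. The 3 rescued libraries are the lowest in all 3 panels, with ratios between 0.745 and 0.759, and the NME6 knockout, RPUSD4 knockdown and control libraries overlap in each.

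Ranked by mean level, CYTB was the lowest of the 13 mRNAs in rescued cells, 8th in the NME6 knockout, 10th in the RPUSD4 knockdown and 9th in control. Against control, its mean in rescued cells differed by -43.9%, next to ND5, a complex I subunit, at -43.5%. These 2 had the largest differences of the 13, and their order turned without rescued replicate 1 (-45.6% for CYTB, -46.6% for ND5), rescued replicate 2 (-46.0% and -47.1%) or control replicate 4 (-40.98% and -41.4%). Against the knockout it differed by -44.0%, after ND5 at -47.6%, and ND4, another complex I subunit, was next at -39.7%. At the other end ATP8, an ATP synthase subunit, differed by -2.81% from control, and ND3, a complex I subunit, by -5.53% from the knockout. All 13 mRNAs had lower means in rescued cells than in either group. Against the knockout 23.1% of the 13 did so with no overlap between libraries, and against control 15.4% did; CYTB was among them both times. Between knockout and control CYTB differed by 0.192%, and the other mRNAs by -12.4% for ND3 up to 12.1% for ND6.

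**Figure D2:**
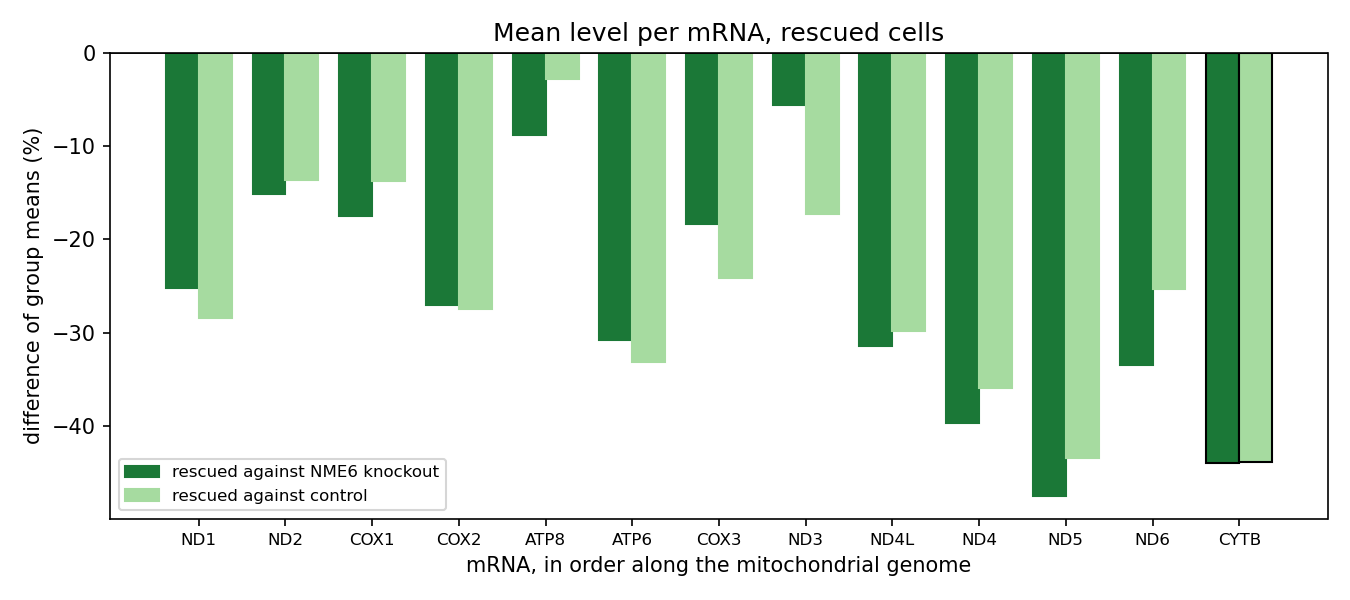
Difference of group means in percent for each mitochondrial mRNA, in order along the genome, with rescued cells set against the NME6 knockout (dark bars) and against control (light bars). All bars point down, CYTB is outlined at -44.0% and -43.9%, and ND5 at -47.6% and -43.5% is its nearest match.

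The mRNAs whose levels moved most like those of CYTB across the 14 libraries were ND4, ND5 and ATP6, the last an ATP synthase subunit. With each gene divided by its own mean over the libraries, their mean absolute differences from CYTB were 0.0612, 0.0625 and 0.0844. Over the other mRNAs this measure reached 0.180, for ND3. The 14 points share the overall level of each library, so this likeness is a description only.

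The rescued CYTB profile was also the most filled, with many low levels and few high ones, and the other mRNAs showed much of the same pattern. Exact zeros made up 22.2% to 26.4% of CYTB positions in rescued libraries, 47.7% to 67.7% in the NME6 knockout, 44.3% to 67.9% in the RPUSD4 knockdown and 28.9% to 59.9% in control. Control replicate 1 held 59.9%, and the other 3 control libraries at most 31.2%. Over the other mRNAs zeros made up 18.6% to 23.7% in rescued libraries, 32.4% to 66.5% in the knockout, 35.9% to 54.4% in the knockdown and 23.1% to 52.8% in control. Rescued libraries had 2, 0 and 2 CYTB bases of 1 point or more. The NME6 knockout libraries had 24, 32, 28 and 31, the RPUSD4 knockdown libraries 30, 31 and 27, and the control libraries 8, 14, 12 and 17. These counts did not overlap between rescued and control, or between control and either of the knockout and the knockdown. Over the other 12 mRNAs the share of positions at 1 point or more was 0.314% to 0.559% in rescued cells, 1.25% to 2.63% in the knockout, 2.23% to 2.80% in the knockdown and 0.608% to 1.58% in control. There too the rescued libraries lay lowest and the knockdown clear of control, while the knockout overlapped control. Averaged over its non-zero levels alone, CYTB had 0.102 points in rescued cells (0.0873 to 0.112), 0.325 in the knockout (0.297 to 0.369), 0.308 in the knockdown (0.296 to 0.316) and 0.221 in control (0.211 to 0.231). On that scale the knockout and the knockdown both lay above control without overlap, at 147% and 139% of it, whereas the plain means did not separate them. The other 12 mRNAs separated in the same way, with non-zero means of 0.111 to 0.145 points in rescued libraries, 0.250 to 0.288 in the knockout, 0.247 to 0.284 in the knockdown and 0.176 to 0.218 in control. Divided by the same quantity over the other 12 mRNAs it stood at 0.784 in rescued cells, 1.20 in the knockout, 1.17 in the knockdown and 1.09 in control, and here the knockout and the knockdown overlapped control. The share of zeros moved with these values, and its part in them was not tested.

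Along the mRNA, levels were compared in 12 windows of 100 bases, the last of 41. Bases 901 to 1000 had the highest window mean in rescued cells (0.125 ± 0.00353 points), the RPUSD4 knockdown (0.179 ± 0.0323) and control (0.182 ± 0.0448), and the second highest in the NME6 knockout (0.196 ± 0.0587). The knockout was highest at bases 201 to 300, with 0.204 ± 0.0533 points, a window that came second in knockdown and control. Both peaks were lower in rescued cells than in the knockout, with no overlap between libraries: bases 201 to 300 read 0.0958 ± 0.0155 points there, or 47.0% of the knockout, and bases 901 to 1000 were at 63.9%. In all, 5 of the 12 windows lay lower in rescued than in knockout libraries with no overlap, against 21.3% of 108 windows in the other mRNAs. Against control it was 4 of 12, and 13.9% of the 108 windows elsewhere. No CYTB window was higher in rescued cells without overlap with the knockout or control, as 1.85% of the other windows were in each comparison.

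Relative to the knockout the gap was widest at bases 601 to 700, and relative to control at bases 801 to 900. In rescued cells bases 601 to 700 read 0.0665 ± 0.0101 points, against 0.184 ± 0.0538 in the knockout and 0.154 ± 0.0393 in control, or 36.2% and 43.1% of those. Bases 801 to 900 read 0.0571 ± 0.00618 points in rescued cells, 0.131 ± 0.04596 in the knockout and 0.139 ± 0.0469 in control. Bases 1001 to 1100 were also lower in rescued cells without overlap with either group. The last 41 bases, next to TRNT, differed least: 0.107 ± 0.0118 points in rescued cells, 0.110 ± 0.0231 in the knockout and 0.122 ± 0.0271 in control, with overlap. Neither the knockout nor the knockdown had a window that stood clear of control. In the other mRNAs 3.7% of windows lay above and 0.926% below control in the knockdown, and 0.0% either way in the knockout. The knockout lay below the knockdown at bases 301 to 400, with 0.0826 ± 0.0225 against 0.135 ± 0.00867 points and no overlap, and 2.78% of the windows elsewhere did likewise.

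**Figure D3:**
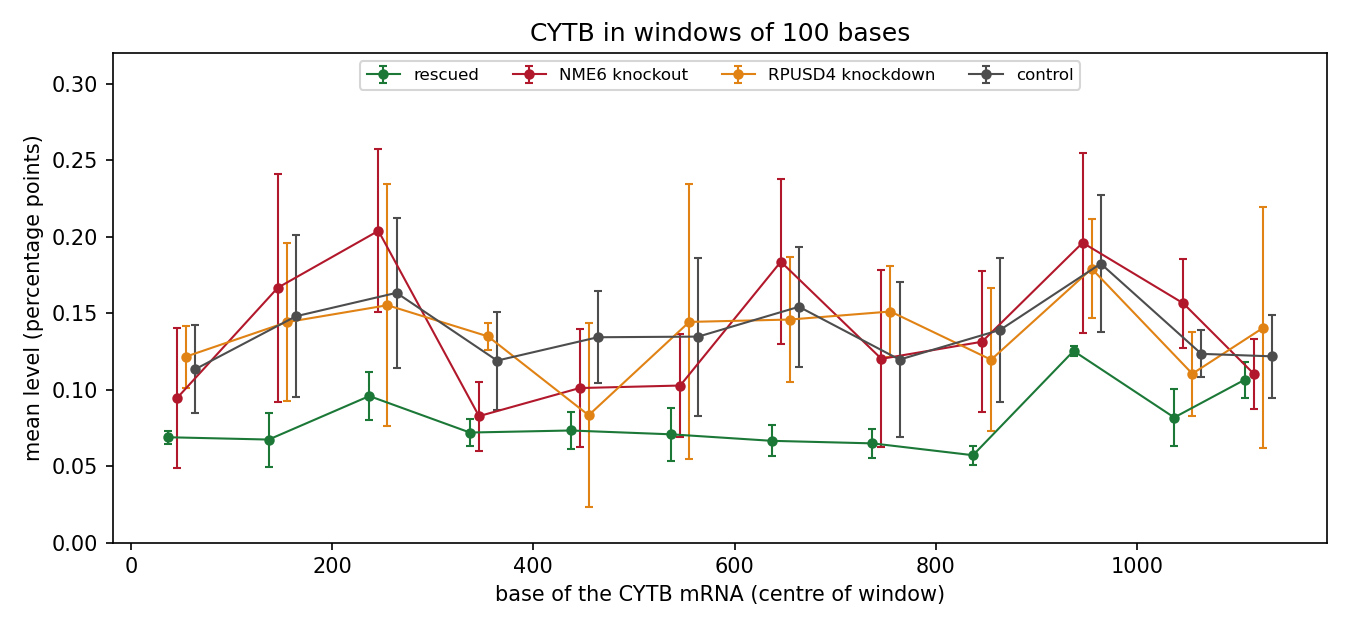
Mean level in windows of 100 CYTB bases, in percentage points, plotted at the window's centre; points are group means and bars 1 SD over 3 or 4 libraries. The rescued profile runs lowest, at 0.0571 to 0.125 points, and rises to meet the other groups in the last window, while the other 3 groups cross one another along the gene.

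The 10 bases of highest mean level over all libraries were bases 122, 924, 923, 938, 649, 187, 305, 266, 816 and 974, in falling order. Their means ran from 1.49 to 0.747 points. Of these 10, 6 had a direct neighbour among the 20 highest, and the 5 neighbouring pairs in that set differed by 0.0530 to 0.198 points on average over the libraries. Bases 923 and 924 were the closest pair. Adjoining bases need not be separate sites, although every count and test of bases here takes each base singly. The first 4 passed the filter for testing, a mean of 1 point or more over all libraries; the lowest of them averaged 1.02 points, and base 649, just outside, 0.934.

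Base 122 (position 14868) was the highest base of CYTB. Rescued libraries had 1.62, 0.669 and 0.878 points there, and NME6 knockout libraries 0.676, 2.18, 1.10 and 3.46. RPUSD4 knockdown libraries had 2.67, 2.87 and 0.520 points, and control libraries 0.666, 1.06, 1.57 and 0.924. Knockout and knockdown each had a pair of libraries above all controls and at least 1 library among or below them. The knockdown was 0.964 points above control (SE 0.721, 95% interval -0.617 to 2.54, adjusted p = 0.710 by limma and Benjamini-Hochberg). The knockout was 0.799 points above control (SE 0.668, 95% interval -0.665 to 2.26, adjusted p = 0.778 by the same limma test). The intervals leave room for a rise of over 2 points as well as for none.

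Bases 923, 924 and 938 (positions 15669, 15670 and 15684) lay in the window of highest level. Base 923 had 0.735, 0.947 and 1.21 points in rescued libraries and 0.344, 1.998, 0.868 and 1.65 in the NME6 knockout. It had 0.770, 0.773 and 1.53 points in the RPUSD4 knockdown and 0.139, 1.21, 1.22 and 1.68 in control. The low values of both the knockout and the control were those of replicate 1, and all 4 groups overlapped. Base 938 was the steadiest of the 4, with group means of 0.969 ± 0.150 points in rescued cells, 1.08 ± 0.422 in the knockout, 0.873 ± 0.294 in the knockdown and 1.12 ± 0.249 in control.

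None of the 4 tested CYTB bases passed the limma test, Benjamini-Hochberg adjusted over all 149 tested positions, in any of the 5 comparisons. None had an unadjusted p under 0.05 either. Over the 149 positions the share called was 0.671% for RPUSD4 knockdown against control, 0.0% for NME6 knockout against control, 3.36% for rescued cells against the knockout, 2.68% for rescued cells against control and 3.36% for the knockout against the knockdown. With 4 bases, no call at these shares is not a result about CYTB.

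**Figure D4:**
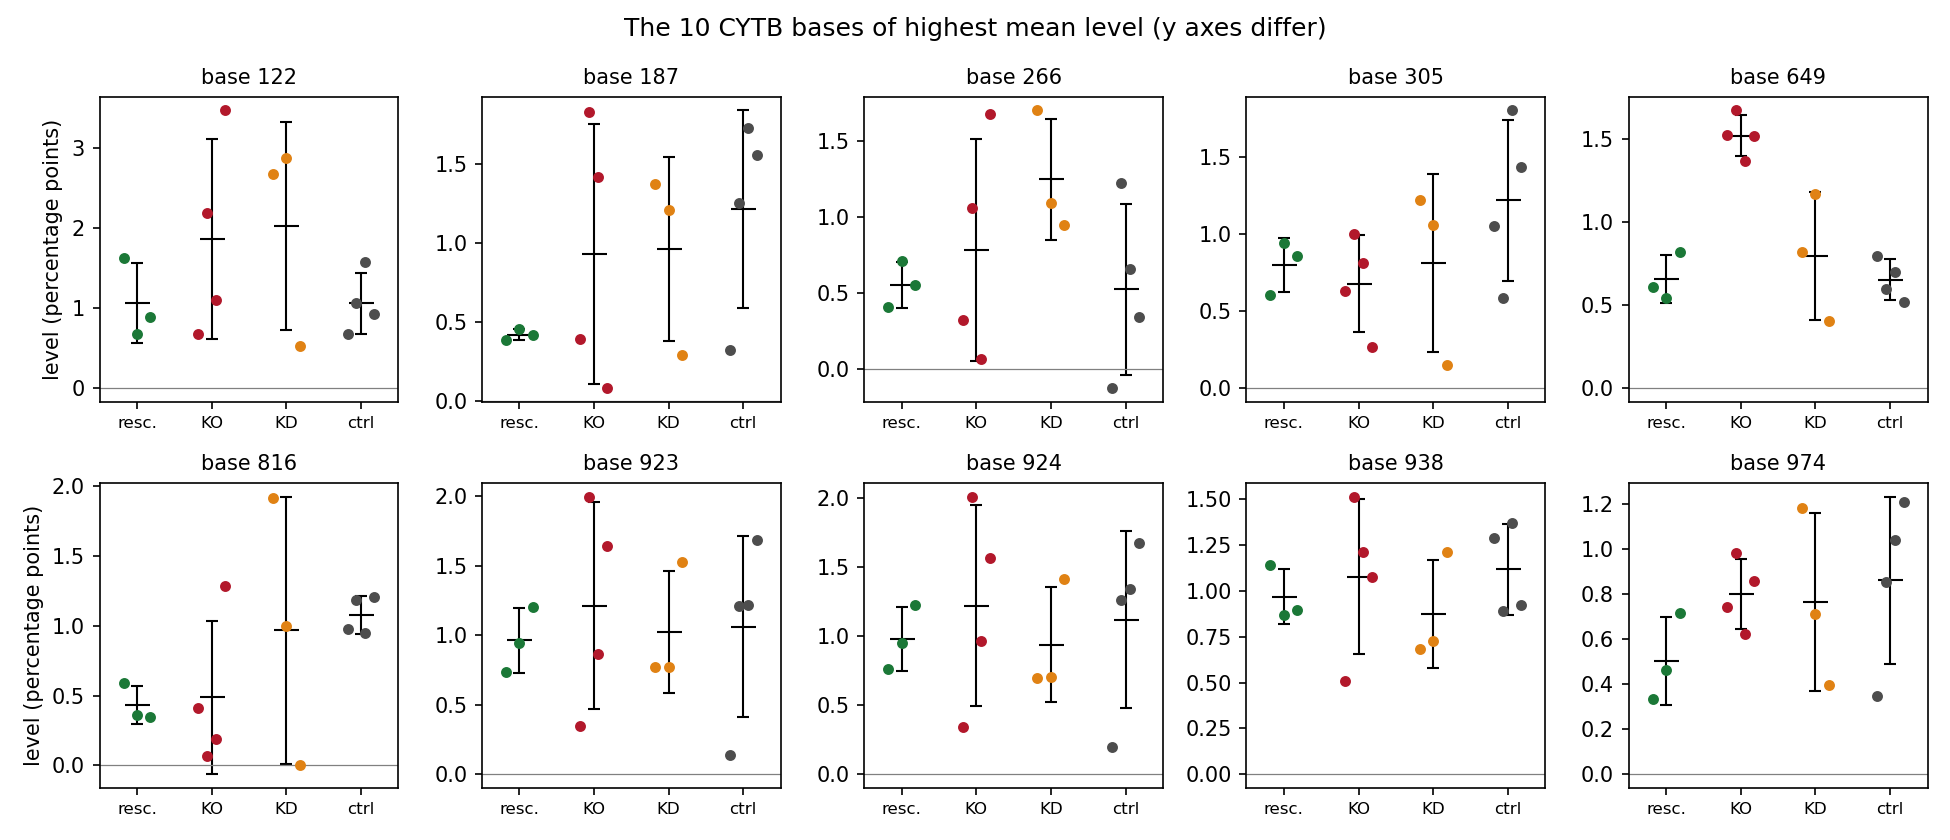
Level in percentage points at the 10 CYTB bases of highest mean, in order along the mRNA, with a y axis of its own in each panel. Each point is 1 library, and bars give the mean and SD of rescued (resc.), NME6 knockout (KO), RPUSD4 knockdown (KD) and control (ctrl) libraries. At base 649 the 4 knockout libraries, at 1.37 to 1.68 points, lie above all others, and at base 816 the 3 rescued libraries lie below the 4 control libraries.

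Base 649 (position 15395) was the one of the 10 that set the NME6 knockout apart. The ranking took in the knockout libraries, and base 649 owed its place among the 10 to them. Group means there were 1.52 points in the knockout, 0.657 in rescued cells, 0.798 in the knockdown and 0.654 in control. The tests below were thus run on a base picked partly by its knockout levels. The knockout libraries had 1.52, 1.68, 1.37 and 1.52 points. Rescued libraries had 0.609, 0.541 and 0.821 points, RPUSD4 knockdown libraries 0.822, 1.17 and 0.401, and control libraries 0.798, 0.599, 0.700 and 0.518. Every knockout library lay above all 10 libraries of the other groups, and rescued and control libraries covered the same range. The knockout exceeded control by 0.870 points, with an exact permutation p of 0.0286, the smallest that 4 against 4 libraries allow. Rescued cells lay 0.866 points below the knockout and the knockdown 0.725 points below it, each with an exact permutation p of 0.0571, the smallest for 4 against 3. Taken by replicate number, the knockout exceeded control by 0.726, 1.08, 0.672 and 1.005 points, higher in 4 of 4 pairs, with an exact sign-flip permutation p of 0.125, the smallest that 4 pairs allow. Adjusted by Benjamini-Hochberg over the 50 exact permutation tests at the 10 bases, the 3 unpaired values became 0.714. None of the 50 could have passed after this adjustment, whatever the levels. Only knockout against control had 4 against 4 libraries, too few of the tests to pass by themselves. In all other comparisons the smallest p, 0.0571, is above the threshold before adjustment. The adjusted values thus decide nothing about base 649.

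The difference at base 649 between knockout and control stayed between 0.819 and 0.920 points when any one library was left out. When the filter was lowered to a mean of 0.5 points, which lets base 649 in, limma gave Benjamini-Hochberg adjusted p = 0.251 for knockout against control (SE 0.188), 0.0627 for rescued cells against the knockout (SE 0.203) and 0.192 for knockout against knockdown. With the replicate number as a block at that filter, limma gave an adjusted p of 0.614 for knockout against control (SE 0.205). It was thus past the threshold in no setting. Of the other exact permutation tests only rescued cells against control at base 816 (position 15562) had groups without overlap. There the rescued libraries had 0.592, 0.363 and 0.346 points and the control libraries 0.979, 1.19, 0.948 and 1.21 (exact permutation p = 0.0571, adjusted 0.714). The knockout spanned 0.0652 to 1.28 points and the knockdown 0 to 1.91 at that base, across both. The ranking took in the control libraries, and base 816 owed its place among the bases of highest mean to them. Group means there were 1.08 points in control, 0.433 in rescued cells, 0.487 in the knockout and 0.970 in the knockdown. The exact test at base 816 is therefore no support apart from the control levels that picked the base.

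The other 4 of the 10 did not separate the groups. Base 187 (position 14933) had 0.387 to 0.459 points in rescued cells, 0.0861 to 1.83 in the NME6 knockout, 0.295 to 1.37 in the RPUSD4 knockdown and 0.325 to 1.72 in control. Base 266 (position 15012) had 0.406 to 0.710 points in rescued cells, 0.0697 to 1.68 in the knockout, 0.952 to 1.70 in the knockdown and -0.123 to 1.22 in control. Base 305 (position 15051) averaged 0.798 points in rescued cells, 0.675 in the knockout, 0.809 in the knockdown and 1.22 in control. Base 974 (position 15720) averaged 0.503 points in rescued cells, 0.801 in the knockout, 0.764 in the knockdown and 0.862 in control. At these 4 bases the groups overlapped in each of the 5 comparisons.

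Over the 38 CYTB bases with a mean of 0.5 points or more, rescued levels were mostly the lower ones. Against control, rescued cells were lower at 34 of 38 bases, or 89.5%, with a median difference of -0.256 points, while 76.1% of 858 such positions over the whole genome were lower, with a median of -0.199. Against the NME6 knockout they were lower at 29 of 38, or 76.3%, with a median of -0.246 points, which is about the 77.5% and -0.253 points of all positions. The knockout was lower than control at 19 of the 38, or 50%, against 43.1% of all positions. The knockdown was lower at 21, or 55.3%, against 44.8%, with a median difference of -0.0677 points at the CYTB bases and 0.0223 over all positions. Rescued libraries lay wholly below control at 8 of the 38 bases (background 14.3% of the 858) and wholly below the knockout at 4 (background 14.1%), and at none wholly above either (background 3.15% and 4.2%). The knockout lay wholly above control at 2 bases (background 1.28%) and wholly below at 4 (background 2.56%). Base 358 (position 15104) is among those 8 and those 4. All rescued and knockout libraries read exactly 0 there, which may mean that no read covered it. It passes the filter only through the knockdown, which averaged 1.93 points. The 8 also hold the neighbouring bases 280 and 281, and 816 and 817, so they need not be separate sites. The knockdown stood clear of control at 1 base, 795, where it was higher (background 4.08%), and was wholly lower at none (background 3.15%). None of the 38 was called by limma at this lower filter after Benjamini-Hochberg adjustment over the 858 positions in any comparison. That filter called 0.816% of all positions for rescued cells against the knockout and 0.583% for rescued cells against control. Of the 38, an unadjusted limma p under 0.05 was found at 6 for rescued cells against the knockout (background 14.6%), 2 for rescued cells against control (10%), 7 for the knockout against control (6.29%), 3 for the knockdown against control (8.16%) and 6 for the knockout against the knockdown (10%). Some of these bases pass the filter only through a group where they are high. Bases 662, 933 and 934 averaged 0.5 points or more in the knockout alone, at 1.16, 0.827 and 0.891 points. Base 1078 passes only with the knockout libraries counted, and bases 280 and 281 only with the controls. These counts, and those of groups without overlap, are therefore no support apart from the levels that admitted the bases.

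Some bases outside the rule for named positions are given because of their values, having been chosen after these were seen. Base 1078 (position 15824), near the end of the mRNA, had 1.10, 1.58, 0.984 and 0.795 points in the NME6 knockout. It had 0.321, 0.423 and 0.101 points in rescued cells, 0.215, 0.563 and 0.00769 in the RPUSD4 knockdown and 0.724, 0.681, 0.750 and 0.374 in control. As at base 649, every knockout library was above all others. At the lower filter the limma Benjamini-Hochberg adjusted p was 0.0703 for rescued cells against the knockout, 0.159 for knockout against knockdown and 0.738 for knockout against control. Base 1078 passes that filter only with the knockout libraries counted. Its group means were 1.11 points in the knockout, 0.282 in rescued cells, 0.262 in the knockdown and 0.632 in control. These p-values are therefore no support apart from the levels that admitted the base.

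Neighbouring bases 280 and 281 (positions 15026 and 15027) went the other way. Base 280 had 0.231, 0.0969 and 0.111 points in rescued libraries, 0, 0.495, 0 and 0 in the NME6 knockout, 0.696, 1.09 and 0.202 in the RPUSD4 knockdown and 0.868, 0.877, 1.27 and 1.17 in control. Rescued and knockout libraries all lay below the controls there, and they overlapped each other. At base 281 the rescued libraries, at 0.139 to 0.291 points, lay below the controls, at 0.835 to 1.65, and knockout replicate 2, at 0.852, reached into the control range. For rescued cells against control limma gave an adjusted p of 0.0810 at both bases at the lower filter, and for knockout against control it was 0.251 at base 280 and 0.317 at base 281. Both bases pass that filter only with the control libraries counted, which averaged 1.05 points at base 280 and 1.36 at base 281. These p-values are therefore no support apart from the levels that admitted the bases.

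Base 741 (position 15487) also set the NME6 knockout apart, at a lower level. It had 0.403, 0.323, 0.455 and 0.414 points in the NME6 knockout libraries. Rescued libraries had 0.0690, 0.0559 and 0.0816 points, RPUSD4 knockdown libraries 0.0541, 0 and 0.135, and control libraries 0.134, 0.136, 0.0529 and 0. With no filter on level, limma called it higher in the knockout than in control (difference 0.318 points, SE 0.0412, Benjamini-Hochberg adjusted p = 0.00387). Without the filter limma also called rescued cells against the knockout (difference -0.330 points, adjusted p = 0.00235) and knockout against knockdown (0.335 points, adjusted p = 0.00523). Rescued cells and control differed there by -0.0119 points (limma adjusted p = 1). Its mean over all libraries, 0.165 points, is far under the filter of 1 point.

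With no filter on level, 1098 CYTB bases entered the test and calls appeared, many of them at bases where a group held a single repeated value. CYTB then had 11 calls for the NME6 knockout against control (background 0.482% of 14928 positions), 11 for rescued cells against the knockout (1.05%), 3 for rescued cells against control (0.69%), 9 for knockout against knockdown (0.509%) and 1 for knockdown against control (0.241%). Of these 35 calls, at 20 bases, 18 were at bases where 1 of the groups compared had an identical level in every library. Base 486 (position 15232), for example, read -0.656 points in all 4 knockout libraries, against 0.137 to 0.563 in control and 0.0554 to 0.235 in rescued cells. Base 441 (position 15187) read -0.264 points in all 4 knockout libraries and 0.708, 0.514 and 0.494 in rescued ones, with control at 0 in all libraries but 1. Identical negative levels were shared by libraries of 1 group at 15 CYTB bases in rescued cells, 43 in the knockout, 58 in the knockdown and 19 in control, and by no libraries of different groups. Whether a shared untreated profile gave these levels was not tested. With bases lacking spread in a group set aside, the calls numbered 3 for the knockout against control (background 0.0994%), 3 for rescued cells against the knockout (0.398%), 6 for knockout against knockdown (0.331%), 0 for rescued cells against control (0.177%) and 0 for knockdown against control (0.0221%). Repeated negative levels remained among these calls. In each comparison with the knockout the smallest p was at base 488 (position 15234). Knockout libraries read -0.658, -0.444, -0.658 and -0.658 points there.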

How the data were processed

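The labels' protocols describe fractionated K562 mitochondria, TRIzol extraction, CMC treatment and stranded total RNA libraries. The submitters' processing notes name Trimmomatic, STAR, SAMtools, GRCh38 and hg38. The caller of altered reads was not given in the sources used here. What the authors deposited is 1 signed score for each position, named delta in the file headers, and neither depth, base nor unit. That it is in percentage points was inferred from its highest values. Of 20 samples the 14 CMC libraries were compared, grouped by genotype label, and the 6 untreated samples entered only through the differences. Only mitochondrial positions were read, which leaves the perturbations unchecked.

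Gene extents came from RefSeq (GRCh38). No mitochondrial sequence was used here, so none is printed. Levels were tested as given with limma 3.58.1 in R 4.3.3 (eBayes with trend, 4 groups sharing the spread) over the 149 positions with a mean of 1 or more, two-sided, Benjamini-Hochberg threshold 0.05. Exact two-sided permutation tests of group means used scipy 1.17.1, with numpy 2.4.6, pandas 2.3.3 and matplotlib 3.10.9 in Python 3.11.15. Named bases were the 10 highest by mean, any called base, and any tested base whose groups did not overlap. Members and lists were chosen with earlier results of these data known. Identical levels agreed within 1e-09.

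Across tested positions, NME6 knockout and control libraries of the same replicate number deviated together (correlations 0.471, 0.286, 0.193 and 0.116), so these numbers were taken to pair them, on the evidence of the data alone. The highest correlations with another number were -0.340, 0.246, 0.159 and 0.121 for knockout replicates 1 to 4. Only replicate 1 was thus clearly matched, and replicate 4 correlated slightly better with another number. The main limma test did not use this pairing. Alternatives were other filters, scaling, weights, a signed log2 scale, the replicate number as a block, the 2 groups alone and leaving out libraries.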

Additional observations from a re-analysis of the deposited data

Results flagged for a closer look

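The mean level over CYTB in control replicate 1 was 0.0846 points, while the other 3 control libraries lay between 0.152 and 0.159. Its gap to the nearest of them was 0.905 of the group's whole range, above Dixon's critical value for 4 samples. Of 22 such groups of 4 levels examined this was the only one, and chance alone gives about 1 in 20. The same library had 59.9% of CYTB positions listed at 0. Without it and without knockout replicate 1, rescued cells differed from control by -0.0788 points in the CYTB mean, against -0.0608 with them.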

How the results depend on the processing

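Besides 1 call noted below with the replicate block, CYTB bases were called only without a level filter: 11 calls for NME6 knockout against control, 11 for rescued against knockout, 3 for rescued against control, 9 for knockout against knockdown and 1 for knockdown against control. With bases lacking spread left out as well, an alternative chosen after seeing the data, these were 3, 3, 0, 6 and 0. Leaving out each library gave 0 calls throughout. The lowest and highest difference in the CYTB mean without 1 library was -0.0753 and -0.0537 points for rescued against knockout, -0.0788 and -0.0540 for rescued against control, -0.0177 and 0.0145 for knockout against control, -0.0210 and 0.0148 for knockdown against control and -0.0145 and 0.0178 for knockout against knockdown. With scaled libraries the first 2 were -0.0401 and -0.0368 points, and without the 10 highest bases -0.0587 and -0.0590.

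Of 745 differences at the 10 named bases under alternatives, 663 kept their sign and 82 changed it, 53 of these with 1 library left out, and none of those with a limma test passed it. The 6 bases under the filter for testing gave 33 of the 82, at differences of -0.255 to 0.258 points that were within the spread of the libraries. The cause was not tested. At position 14868, rescued against control turned from -0.000904 to 0.245 (block) and 0.280 (scaled), with -0.283 to 0.192 over left-out libraries, and knockout against knockdown from -0.165 to 0.229 without replicate 1 of control and knockout (-0.915 to 0.260 over left-out libraries). At 15669, knockdown against control became 0.138 (block), 0.129 (scaled) and 0.0204 (signed log2), with -0.345 to 0.170 over left-out libraries, rescued against control 0.0766 (block) and 0.293 (scaled; -0.407 to 0.108), rescued against knockout 0.105 (scaled; -0.542 to 0.0101), knockout against control -0.155 to 0.442 and knockout against knockdown -0.0716 to 0.480. At 15670, rescued against control became 0.0108 (block) and 0.255 (scaled; -0.446 to 0.0463), rescued against knockout 0.123 (scaled; -0.533 to 0.0233), knockdown against control -0.487 to 0.00594 and knockout against control -0.206 to 0.394. At 15684, knockout against control became 0.245 (library weights) and 0.208 without both replicates 1 (-0.186 to 0.150), rescued against knockout 0.185 (scaled; -0.299 to 0.0367) and rescued against control 0.00430 (scaled).

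The replicate block changed no call at the filter of 1 point. At the filter of 0.5 points, tried after seeing the data, it gave 1 call, base 1078 lower in rescued than in knockout cells (difference -0.927 points, limma adjusted p = 0.0332, against 0.0703 without the block), although the numbers do not pair these groups. That base passes this filter only with the knockout libraries counted. The 6 named bases under the filter were given no fit with weights or signed log2, and a restriction to uridines was not run because no sequence was used here. Depth is unknown, so bases at 0 and counting error could not be weighed.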
